A study of Mus musculus with 8 samples.

Results

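Of 23235 gene symbols measured, 36 had at least 20 FPKM (fragments per kilobase of exon, scaled to the mapped fragments of the library) in both libraries of Cnot4-null pachytene and diplotene (PD) spermatocytes and a mean under 2 FPKM in each of the other 3 groups. The other groups were wild-type (WT) leptotene and zygotene (LZ) spermatocytes, Cnot4-null LZ spermatocytes and WT PD spermatocytes. Symbols starting with Mir, Snora or Snord were left out. Because the 36 genes were selected on these FPKM values, their height in Cnot4-null PD is a description of the choice and carries no test.

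CNOT4 is a subunit of the CCR4-NOT complex, which removes poly(A) tails from mRNA. The study compared spermatocytes from 6-week-old male C57BL/6 mice, with 2 libraries in each of 4 groups, which it calls biological replicates. The Cnot4-null groups carried Cnot4 fl/fl alleles and the Stra8-Cre transgene, which acts in male germ cells before meiosis, so the somatic cells of these testes kept Cnot4. Cells of all groups were sorted by fluorescence after Hoechst and propidium iodide staining, a sort on DNA content and chromatin. The methods of the study do not give the limits of the gates, and which cells they removed was not tested here. The study also checked sorted cells by staining for SYCP3 and phosphorylated H2AX, which was not analysed here. How many animals stand behind a library is not stated. The labels describe Trizol extraction and TruSeq libraries, the methods of the study describe Smart-seq2 libraries from sorted cells, and which of them applied here was not determined. The values are FPKM without read counts.

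A testis holds germ cells in tubules, in contact with Sertoli cells and wrapped by contractile peritubular myoid cells. Between the tubules lie Leydig cells, fibroblasts, macrophages, lymphocytes and vessels. Leydig cells make testosterone from cholesterol: Star brings cholesterol into mitochondria, Cyp11a1 cuts its side chain, and the Hsd3b, Cyp17a1 and Hsd17b3 enzymes complete the hormone. Spermatocytes in PD are the last stages of the first meiotic prophase, and the protamine and transition protein genes follow later, in spermatids.

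The Cnot4 gene itself stood at 65.9 and 53.5 FPKM in Cnot4-null PD, against 76.6 and 73.1 in WT PD, 43.2 and 34.6 in Cnot4-null LZ and 36.03 and 34.9 in WT LZ. Its FPKM in Cnot4-null PD lay below both WT PD values, with a log2 difference of -0.33 (SE 0.20, limma adjusted p = 0.192, n = 2 libraries a group) that did not pass the threshold, while after rescaling it was called lower (-1.75). A value for the whole gene cannot show the loss of an exon, so it gives no check of the deletion.

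The limits on the other groups were counted after the lower limit, and in that order they removed most of the symbols left. Both Cnot4-null PD libraries reached 20 FPKM for 3984 symbols. Of these, 194 had a mean under 2 in WT PD, 285 in Cnot4-null LZ and 163 in WT LZ. All 3 limits held for 41 symbols, of which 5 were left out by name, and the 36 that remained were 0.904% of the 3984. The same rule turned to the other groups, a comparison chosen after the values were seen, found no gene in WT LZ, a pair of small RNA genes (Scarna3a and Scarna8) in Cnot4-null LZ, and 4 genes in WT PD (4930404A05Rik, 4930548K13Rik, 9530002B09Rik and Olfr1188).

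**Figure D1:**
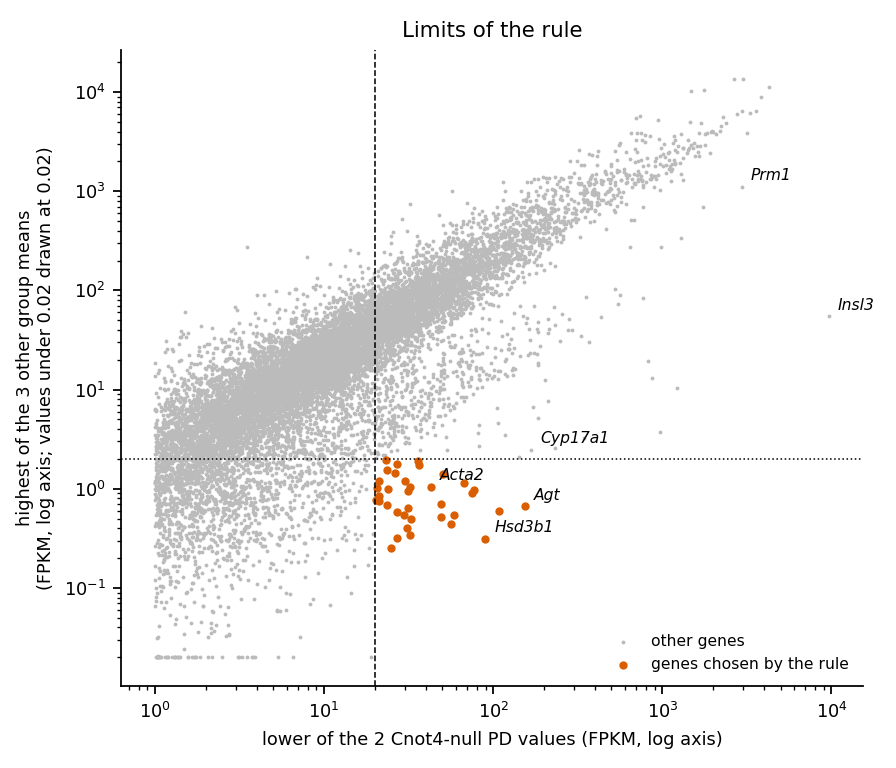
Each point is a gene, with the lower of its 2 Cnot4-null PD values on the x axis and the highest of the 3 other group means on the y axis, both in FPKM on log axes, with values under 0.02 drawn at 0.02. The dashed line marks 20 FPKM and the dotted line 2 FPKM, the 36 chosen genes lie to the right of the first and under the second, and Insl3, Cyp17a1 and Prm1 lie above the second.

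A description of the 36 genes as found only in Cnot4-null PD did not hold to the letter. None of the 36 genes was listed at 0 in all 6 other libraries, 10 were above 0 in all 6, and 27 were under 2 FPKM in every one of them. The other 9 reached 2 FPKM in a library outside Cnot4-null PD: Acsbg1, Cxcl1, Cyp11a1, Folr1, LOC626049, Ly6e, Ogn, Prr22 and S100a4. The highest of the 3 other means ranged from 0.254 to 1.97 FPKM with a median of 0.812, and it was the WT PD mean for 19 genes, the Cnot4-null LZ mean for 9 and the WT LZ mean for 8. Their summed level was 1586 and 2872 FPKM in Cnot4-null PD, against 37.2 and 9.21 in WT PD, 17.1 and 13.7 in Cnot4-null LZ and 18.7 and 17.6 in WT LZ. That was 0.178% and 0.425% of all FPKM in the 2 Cnot4-null PD libraries.

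All 36 genes were among the 15899 kept for the fit across genes (above 1 FPKM in at least 1 library), which they passed through the group they were chosen for. In the fit by limma at adjusted p under 0.05, 41.6% of all genes tested were called higher and 11.5% lower in Cnot4-null PD than in WT PD. Against Cnot4-null LZ the shares were 27.8% higher and 18.2% lower, and from WT LZ to WT PD 21.6% higher and 36.2% lower. The median log2 difference of all genes between Cnot4-null PD and WT PD was 0.66, which quantile normalization moved to -0.12 and rescaling the libraries to the same median moved to -0.30. The split depends on that scaling: 78.3% of the calls between the PD groups were higher in Cnot4-null PD as deposited, 41.5% after quantile normalization and 36.1% after rescaling. Of all genes tested, 19.1% were then called higher and 26.9% lower after quantile normalization, and 23.3% and 41.2% after rescaling, and against Cnot4-null LZ the shares were 18.9% and 30.8%, then 20.9% and 33.0%. Counts of called list genes below stand beside these shares. Listed genes could also pass the filter through Cnot4-null PD alone, and for these a call of higher is partly set by the filter. Nothing about the 36 genes is read from these shares, since the rule used the same libraries.

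**Figure D2:**
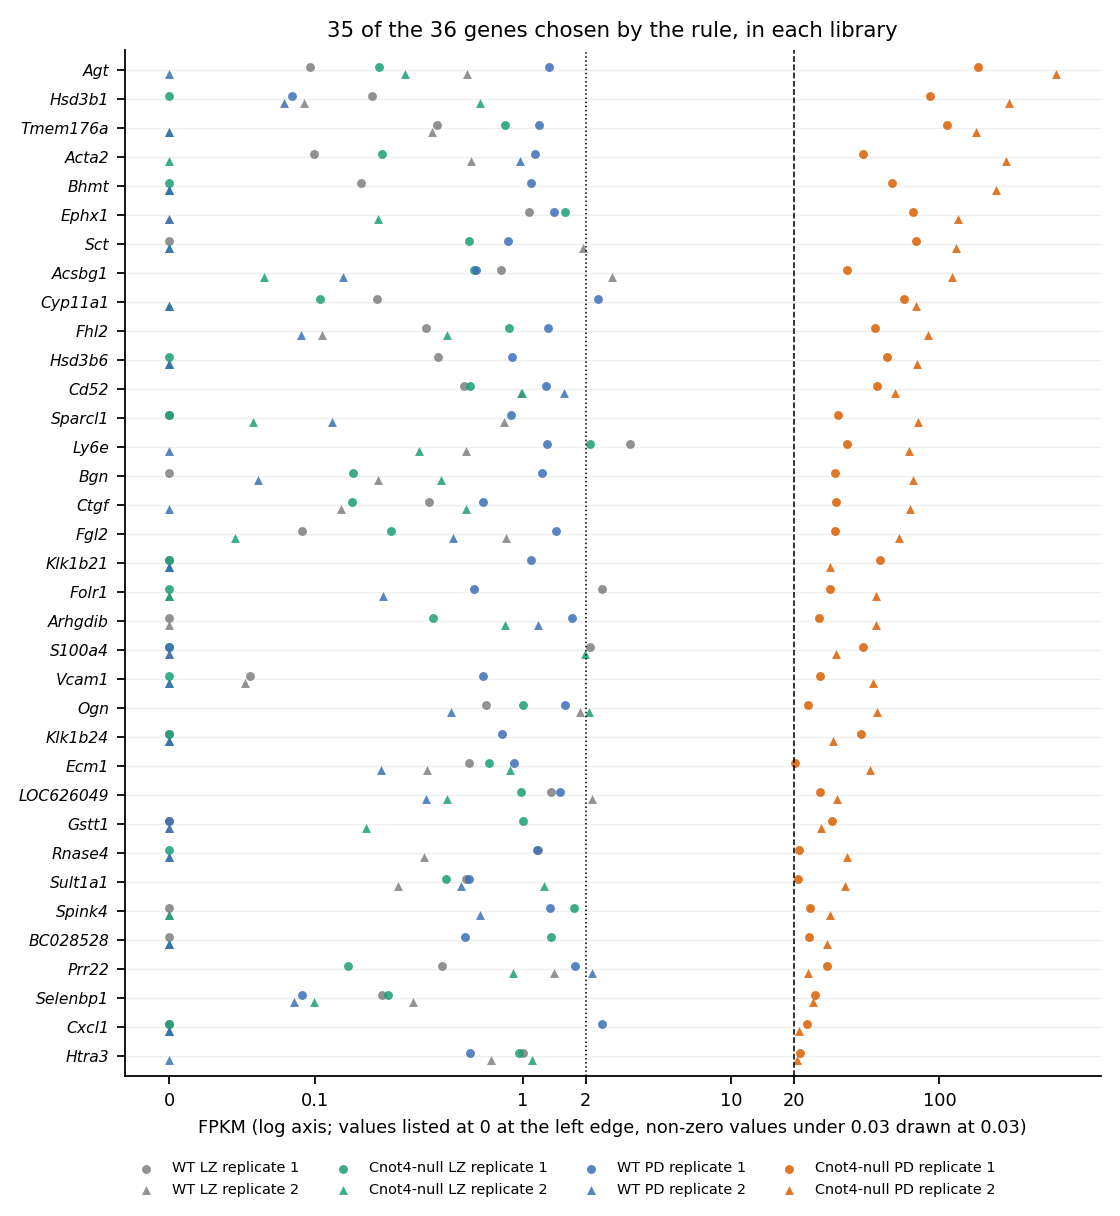
Of the 36 chosen genes, 35 are drawn, ordered by their mean in Cnot4-null PD, with FPKM on a log axis and values listed at 0 at the left edge. Colours give the group and shapes the replicate, the dashed line marks 20 FPKM and the dotted line 2 FPKM, and the Cnot4-null PD points run from 20.2 (Ecm1) to 365 (Agt).

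Genes of steroid hormone synthesis came near the top of the 36. Hsd3b1, which turns pregnenolone into progesterone and is known from Leydig cells and the adrenal gland, stood at 89.7 and 216 FPKM in Cnot4-null PD, against 0.0777 and 0.0712 in WT PD, 0 and 0.625 in Cnot4-null LZ and 0.189 and 0.0893 in WT LZ. Cyp11a1, the first enzyme of all steroid hormone synthesis, stood at 67.3 and 77.5 FPKM in Cnot4-null PD, against 2.28 and 0 in WT PD, 0.106 and 0 in Cnot4-null LZ and 0.198 and 0 in WT LZ. Its value in WT PD replicate 1 was above 2, while WT PD replicate 2 was listed at 0. Hsd3b6, a close relative of Hsd3b1 that adult mouse Leydig cells are known to use, stood at 56.1 and 78.2 FPKM in Cnot4-null PD, against 0.881 and 0 in WT PD, 0 and 0 in Cnot4-null LZ and 0.389 and 0 in WT LZ. All 3 were higher in Cnot4-null PD replicate 2 than in replicate 1, by 1.15 (Cyp11a1) to 2.40 times (Hsd3b1).

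Hsd3b6 and Hsd3b1 lie 37750 bases apart on the minus strand of chromosome 3. Their promoters are shown because both genes were chosen and lie near each other. Each line gives the 250 bases before the start, from RefSeq on GRCm38.p6, at chr3:98859795-98860044 (minus strand) for Hsd3b1 and chr3:98814444-98814693 (minus strand) for Hsd3b6, and no capitals appear because none of the 4 motifs searched lies in them.
Hsd3b1: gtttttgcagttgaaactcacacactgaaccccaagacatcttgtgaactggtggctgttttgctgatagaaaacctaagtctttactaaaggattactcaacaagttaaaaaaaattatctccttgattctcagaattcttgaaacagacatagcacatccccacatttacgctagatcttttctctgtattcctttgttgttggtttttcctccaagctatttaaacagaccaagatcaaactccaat
Hsd3b6: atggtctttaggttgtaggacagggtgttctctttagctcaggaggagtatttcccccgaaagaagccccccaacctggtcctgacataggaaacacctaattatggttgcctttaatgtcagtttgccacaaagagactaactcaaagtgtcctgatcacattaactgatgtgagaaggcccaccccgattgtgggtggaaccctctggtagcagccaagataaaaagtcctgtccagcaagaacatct
Base by base from the start, 28% of the positions were identical. The longest run shared at any shift was 7 bases, found at a shift of 76 bases, where 26.4% of the overlapping positions were identical.

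Most of the Leydig cell list moved with the 3 genes. The list held 12 genes, and 6 had both Cnot4-null PD values at 20 FPKM or more: the 3 chosen genes and Insl3, Cyp17a1 and Fdx1, which missed the rule through a mean of 2 or more in another group. Insl3, the peptide hormone of Leydig cells and the most abundant gene of the list, stood at 9669 and 21608 FPKM in Cnot4-null PD, against 104 and 4.90 in WT PD, 8.25 and 16.9 in Cnot4-null LZ and 14.99 and 8.75 in WT LZ. Both of its Cnot4-null PD values lay above both WT PD values (log2 difference 9.18, SE 1.19, limma adjusted p = 0.00102). Cyp17a1, the enzyme that opens the way from progestins to androgens, stood at 168 and 278 FPKM in Cnot4-null PD, against 4.93 and 0 in WT PD, 0 and 0.449 in Cnot4-null LZ and 0.0950 and 0 in WT LZ (log2 difference 6.48, SE 0.75, adjusted p = 0.000663).

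Of the 9 Leydig genes outside the 36, limma called 8 higher in Cnot4-null PD than in WT PD, and 7 after either scaling, beside 41.6% of all genes tested, and 19.1% and 23.3% after the scalings. The median log2 difference of the 9 was 3.03, beside 0.66 over all genes. Star, the cholesterol carrier, had a log2 difference of 2.41, Hsd17b3, the last enzyme to testosterone, 3.57, and Lhcgr, the receptor for luteinizing hormone, 2.67. The exception was Fdx1, an electron carrier for mitochondrial enzymes that all libraries held at 73.6 FPKM or more (log2 difference -0.28, adjusted p = 0.334), whose sign turned to 0.093 after quantile normalization and which was called lower after rescaling. The list summed to 10344 and 22508 FPKM in Cnot4-null PD, against 365 and 248.8 in WT PD, 109.9 and 107 in Cnot4-null LZ and 108 and 117 in WT LZ. Without Insl3 the sums were 675 and 901 FPKM in Cnot4-null PD, against 260.4 and 244 in WT PD, 102 and 90.2 in Cnot4-null LZ and 93.3 and 108 in WT LZ. No gene of the list was at 0 in both Cnot4-null PD libraries, and 5 of the 12 had a mean of 2 FPKM or more in another group. Fewer cells of a type and less RNA per cell cannot be told apart in such libraries. The part that Leydig cell RNA has in the 36 genes was not tested.

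Klk1b21 and Klk1b24 belong to the glandular kallikreins, secreted serine proteases encoded in a cluster on chromosome 7, several of which are known from Leydig cells. Klk1b21 stood at 51.7 and 29.7 FPKM in Cnot4-null PD, against 1.10 and 0 in WT PD, 0 and 0 in Cnot4-null LZ and 0 and 0 in WT LZ. Klk1b24 stood at 42.0 and 30.9 FPKM in Cnot4-null PD, against 0.797 and 0 in WT PD, 0 and 0 in Cnot4-null LZ and 0 and 0 in WT LZ. Outside Cnot4-null PD, both were above 0 in WT PD replicate 1 alone. The pair lie 81661 bases apart, and 28.2% and 32.2% of the 50-base stretches of their transcripts also occurred in another gene, so reads of 50 bases from these stretches could not be placed uniquely. Of the 14 symbols starting with Klk1b, these were the 2 chosen.

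The promoters of the pair are shown because they are nearly the same, at chr7:44102042-44102291 (plus strand) for Klk1b21 and chr7:44187986-44188235 (plus strand) for Klk1b24, from RefSeq on GRCm38.p6. Capitals mark the letters TGACCTTG, which begin at position -247 from the start of Klk1b21 and are the reverse complement of CAAGGTCA, a motif bound by NR5A1, the regulator of steroid hormone genes.
Klk1b21: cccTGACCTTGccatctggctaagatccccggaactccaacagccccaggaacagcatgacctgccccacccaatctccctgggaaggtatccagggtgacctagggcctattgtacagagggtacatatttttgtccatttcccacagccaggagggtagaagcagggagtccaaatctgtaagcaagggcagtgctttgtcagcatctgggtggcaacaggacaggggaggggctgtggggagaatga
Klk1b24: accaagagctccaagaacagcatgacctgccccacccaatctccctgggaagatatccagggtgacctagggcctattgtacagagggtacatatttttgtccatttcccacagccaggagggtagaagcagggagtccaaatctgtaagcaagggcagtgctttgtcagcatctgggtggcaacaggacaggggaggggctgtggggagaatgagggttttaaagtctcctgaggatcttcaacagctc
Shifted by 35 bases, 210 of 215 positions (97.7%) were identical, with an unbroken shared run of 162 bases.

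The glandular kallikrein list of 14 genes, which holds both, summed to 317 and 136 FPKM in Cnot4-null PD, against 5.87 and 3.41 in WT PD, 38.1 and 3.86 in Cnot4-null LZ and 3.36 and 5.61 in WT LZ. Its most abundant gene was Klk1b8, at 91.8 and 51.4 FPKM in Cnot4-null PD, whose means were 2 FPKM or more in all 3 other groups. Of the 10 tested genes outside the 36, 4 were called higher than in WT PD (3 after quantile normalization, 4 after rescaling), among them Klk1b8 (log2 difference 4.41, SE 0.998, adjusted p = 0.00959) and Klk1b27 (4.35, SE 0.65, adjusted p = 0.00181). The call for Klk1b8 was lost without the filter and when WT PD replicate 1 or 2 or Cnot4-null PD replicate 1 was left out (log2 difference 4.37, 4.45 and 3.998).

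Contractile and matrix genes were the largest role, with 8 of the 36. Acta2, the smooth muscle actin of peritubular myoid cells and vessel walls, stood at 42.8 and 209 FPKM in Cnot4-null PD, against 1.14 and 0.968 in WT PD, 0.211 and 0 in Cnot4-null LZ and 0.0987 and 0.560 in WT LZ. Its 2 Cnot4-null PD values differed by 4.87 times, the widest gap among the 36. Sparcl1, a secreted relative of osteonectin, stood at 32.4 and 78.8 FPKM in Cnot4-null PD, against 0.880 and 0.121 in WT PD, 0 and 0.0505 in Cnot4-null LZ and 0 and 0.808 in WT LZ. Fhl2, a LIM domain protein of muscle and other cells, stood at 49.3 and 88.2 FPKM in Cnot4-null PD, against 1.32 and 0.0863 in WT PD, 0.857 and 0.433 in Cnot4-null LZ and 0.343 and 0.108 in WT LZ. The remaining 5 were the small proteoglycans Bgn and Ogn, the matrix proteins Ctgf (now Ccn2) and Ecm1, and the secreted protease Htra3. Their means in Cnot4-null PD ran from 21.1 (Htra3) to 53.0 FPKM (Bgn).

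The peritubular myoid or smooth muscle list placed Acta2 beside 11 further genes. Its most abundant gene was Myl9, a myosin light chain, at 85.4 and 293 FPKM in Cnot4-null PD (log2 difference from WT PD 6.53, SE 0.61, adjusted p = 0.000317). Of the 10 tested genes outside the 36, 9 were called higher than in WT PD, and 7 after either scaling. The list summed to 210.1 and 695 FPKM in Cnot4-null PD, against 15.8 and 12.1 in WT PD, 22.03 and 15.2 in Cnot4-null LZ and 25.3 and 38.0 in WT LZ. The fibroblast and matrix list held none of the 36, since Dcn, Mgp and Sparc reached 20 FPKM in both libraries but had a mean of 2 or more elsewhere. Of its 11 tested genes 10 were called higher, with all 10 tested after each scaling also called, led by Dcn (decorin, log2 difference 6.16, SE 1.19, adjusted p = 0.0051). This list summed to 591 and 966 FPKM in Cnot4-null PD, against 34.2 and 5.22 in WT PD, 34.2 and 33.3 in Cnot4-null LZ and 48.3 and 38.6 in WT LZ. No gene of either list was at 0 in both Cnot4-null PD libraries, and their part in the result was not tested.

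Among genes of leukocytes, adhesion and chemokines, 6 were chosen. Cd52, a small surface glycoprotein of lymphocytes and other leukocytes that the epididymis also makes, stood at 50.3 and 61.3 FPKM in Cnot4-null PD, against 1.28 and 1.57 in WT PD, 0.556 and 0.984 in Cnot4-null LZ and 0.520 and 0.984 in WT LZ. Ly6e, a lipid-anchored surface protein induced by interferon, stood at 36.1 and 71.6 FPKM in Cnot4-null PD, against 1.31 and 0 in WT PD, 2.105 and 0.316 in Cnot4-null LZ and 3.28 and 0.532 in WT LZ. Its WT LZ mean of 1.91 FPKM was close to the limit. Vcam1, an adhesion receptor for leukocytes, stood at 26.8 and 47.8 FPKM in Cnot4-null PD, against 0.641 and 0 in WT PD, 0 and 0 in Cnot4-null LZ and 0.0487 and 0.0461 in WT LZ. The others were Arhgdib (a cytoskeleton regulator of blood cells), Fgl2 (a fibrinogen-like protein of macrophages and T cells) and Cxcl1 (a chemokine for neutrophils), with means in Cnot4-null PD of 37.9, 47.5 and 22.1 FPKM.

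Defining lymphocyte genes were mostly low. The lymphocyte list of 15 genes held Cd52 as its most abundant gene, and Cd79a (B cells) and Gzma (cytotoxic cells) were at 0 throughout Cnot4-null PD. Of its 10 tested genes outside the 36, 3 were called higher than in WT PD. Of 9 tested after either scaling, 3 were called higher and 3 lower. The list summed to 112 and 150.1 FPKM in Cnot4-null PD, against 12.7 and 11.5 in WT PD, 7.75 and 16.6 in Cnot4-null LZ and 6.19 and 8.60 in WT LZ. Without Cd52 the sums were 61.7 and 88.8 FPKM in Cnot4-null PD and 11.4 and 9.96 in WT PD. In LZ they were then 7.20 and 15.6 (Cnot4-null) and 5.67 and 7.61 (WT). The macrophage list of 16 genes held none of the 36, with 8 of 15 tested genes called higher and 1 (Fcgr3) lower (3 and 1 after quantile normalization, 8 and 1 of 14 after rescaling). Its most abundant gene, Aif1, which all 8 libraries held at 13.1 FPKM or more, was at 352 and 128 FPKM (log2 difference from WT PD 3.56, SE 0.67, adjusted p = 0.00469). The macrophage list summed to 449 and 409.7 FPKM in Cnot4-null PD, against 107 and 97.8 in WT PD, 87.6 and 25.5 in Cnot4-null LZ and 85.4 and 34.2 in WT LZ, and without Aif1 it came to 97.5 and 282 in Cnot4-null PD, against 84.9 and 84.7 in WT PD, 36.5 and 12.1 in Cnot4-null LZ and 63.6 and 6.78 in WT LZ. Most of the remaining difference between these sums and those of WT PD thus lay in replicate 2. The sums do not describe single genes. For 15 of the 16 macrophage genes, replicate 1 and replicate 2 of Cnot4-null PD each exceeded the higher WT PD value. The part of leukocyte RNA in these genes was not tested.

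Metabolic and detoxifying enzymes made up 7 of the 36. Bhmt, which remethylates homocysteine and is best known from liver and kidney, stood at 58.9 and 187 FPKM in Cnot4-null PD, against 1.10 and 0 in WT PD, 0 and 0 in Cnot4-null LZ and 0.167 and 0 in WT LZ. Ephx1, the microsomal epoxide hydrolase, stood at 74.7 and 123 FPKM in Cnot4-null PD, against 1.402 and 0 in WT PD, 1.59 and 0.201 in Cnot4-null LZ and 1.06 and 0 in WT LZ. Both were listed at 0 in WT PD replicate 2 and above 1 FPKM in WT PD replicate 1. Acsbg1, an acyl-CoA synthetase for long fatty acids known from brain, adrenal gland and testis, stood at 36.1 and 115 FPKM in Cnot4-null PD, against 0.598 and 0.137 in WT PD, 0.582 and 0.0572 in Cnot4-null LZ and 0.787 and 2.69 in WT LZ. Gstt1, a glutathione transferase, stood at 30.4 and 27.0 FPKM in Cnot4-null PD, against 0 and 0 in WT PD, 0.999 and 0.177 in Cnot4-null LZ and 0 and 0 in WT LZ. Sult1a1, which adds sulfate to phenols, and Selenbp1, a selenium-binding oxidase, had means of 28.0 and 25.1 FPKM in Cnot4-null PD.

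The Bhmt promoter is shown because it is the other one of the 27 searched promoters with the NR5A1 motif, here in the printed direction, in capitals, beginning at position -74 from the start. It lies at chr13:93637759-93638008 (minus strand) on GRCm38.p6 and is from RefSeq.
Bhmt: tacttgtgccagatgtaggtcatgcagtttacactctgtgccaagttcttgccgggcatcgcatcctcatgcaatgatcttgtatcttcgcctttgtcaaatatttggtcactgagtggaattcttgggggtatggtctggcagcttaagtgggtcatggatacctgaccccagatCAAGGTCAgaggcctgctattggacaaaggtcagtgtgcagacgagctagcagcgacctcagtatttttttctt

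The glutathione and detoxification list of 14 genes, which holds Gstt1, summed to 1696 and 2813 FPKM in Cnot4-null PD, against 68.7 and 18.02 in WT PD, 101 and 109 in Cnot4-null LZ and 141 and 176 in WT LZ. All 12 tested genes outside the 36 were called higher than in WT PD, also after each scaling. The most abundant was Gstm1, at 819 and 1258 FPKM in Cnot4-null PD (log2 difference 6.19, SE 0.77, adjusted p = 0.00085), and 8 genes of the list missed the rule because another group had a mean of 2 FPKM or more. Gsta1 was at 0 throughout Cnot4-null PD.

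Secreted hormones, precursors and inhibitors numbered 4. Agt, angiotensinogen, the precursor of angiotensin that liver and other tissues secrete, was the most abundant of the 36 and stood at 154 and 365 FPKM in Cnot4-null PD, against 1.33 and 0 in WT PD, 0.203 and 0.270 in Cnot4-null LZ and 0.0951 and 0.540 in WT LZ. Sct, secretin, a gut hormone, stood at 77.3 and 120.4 FPKM in Cnot4-null PD, against 0.845 and 0 in WT PD, 0.549 and 0 in Cnot4-null LZ and 0 and 1.94 in WT LZ. Rnase4, a secreted ribonuclease, and Spink4, a protease inhibitor of the gut, had means of 28.6 and 26.9 FPKM in Cnot4-null PD. Rnase4 shares 651 exon bases on the same strand with Ang, which reached 3.15 and 6.65 FPKM in Cnot4-null PD and was listed at 0 elsewhere, so reads in the shared exon cannot be assigned to either gene.

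The Agt promoter is shown as that of the most abundant gene, with a TATA box in capitals that begins at position -30 from the start. It lies at chr8:124569707-124569956 (minus strand) on GRCm38.p6 and is from RefSeq.
Agt: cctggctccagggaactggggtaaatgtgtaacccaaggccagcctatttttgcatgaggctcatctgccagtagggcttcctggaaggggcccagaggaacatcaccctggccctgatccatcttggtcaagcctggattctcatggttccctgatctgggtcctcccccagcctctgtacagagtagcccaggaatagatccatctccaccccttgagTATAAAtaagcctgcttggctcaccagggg

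The 6 genes outside these roles were led by Tmem176a, a membrane protein of immune and other cells, at 109 and 149.7 FPKM in Cnot4-null PD, against 1.19 and 0 in WT PD, 0.824 and 0 in Cnot4-null LZ and 0.385 and 0.364 in WT LZ. With Agt, it was the other gene at 100 FPKM or more in both Cnot4-null PD libraries. Folr1, a folate receptor, and S100a4, a calcium-binding protein of fibroblasts and leukocytes, had means of 39.7 and 37.6 FPKM there. Prr22, LOC626049 and BC028528, whose roles are not described here, had means between 26.0 and 29.5 FPKM.

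The 2 WT PD libraries differed for these genes in a way the rule, which used their mean, did not set. Of the 36, 32 were higher in WT PD replicate 1, 2 in replicate 2 (Prr22 and Cd52), and 2 were listed at 0 in both (S100a4 and Gstt1). Among the other genes kept, 51.7% were higher in replicate 1. Some lists with few or no chosen genes tilted the same way, namely round spermatid (14 higher in replicate 1 and 0 in replicate 2), Leydig (11 and 1), fibroblast (10 and 2) and spermatogonium (10 and 3), while the Sertoli list went the other way (3 and 14), so the tilt was not particular to the 36. In WT PD replicate 1, 2 of the 36 were listed at 0, against 19 in replicate 2, and Insl3 stood at 104 FPKM against 4.90. The LZ groups showed no such tilt: 16 were higher in WT LZ replicate 1 and 13 in replicate 2, and 15 and 13 in Cnot4-null LZ. A value of 0 may also be a failed estimate, since Hmgcs1 and the globin genes were listed at 0 in all 8 libraries.

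**Figure D3:**
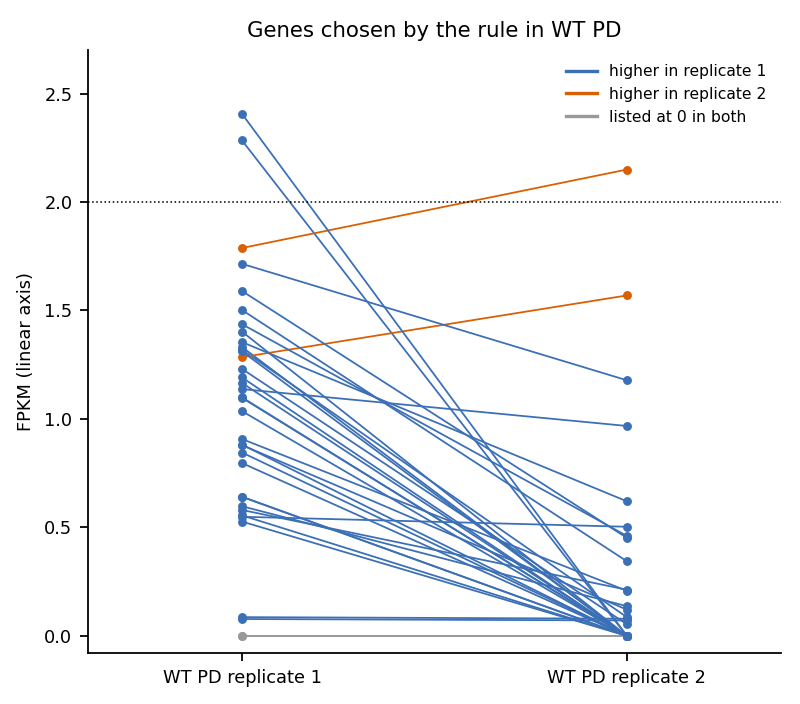
FPKM of the 36 chosen genes in the 2 WT PD libraries on a linear axis, with a line for each gene and the dotted line at 2 FPKM. Lines for 32 genes fall toward replicate 2, where 19 genes are listed at 0, and lines for Prr22 and Cd52 rise.

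The 2 Cnot4-null PD libraries differed too, and the rule set no ratio between them. Of the 36 genes, 28 (77.8%) were higher in replicate 2, against 22.5% of 3919 other genes with both values at 20 FPKM or more. With the 36, these made up 3955 of the 3984 symbols that reached the lower limit. Over all other genes kept, 52.8% were higher in replicate 1. The median ratio of replicate 2 to replicate 1 was 1.66 for the 36 (log2 0.73) and 0.735 for the others (log2 -0.44). After quantile normalization the 2 log2 medians were 1.23 and -0.06, and after rescaling 0.67 and -0.55. With 1 library against 1, no test was made. The correlation of log2 values of the 2 libraries across the genes kept, which are not independent replicates, was 0.898, the lowest of the 4 groups (0.953 to 0.984 in the others).

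Roles fell on different sides of that ratio. The contractile and matrix genes had a median ratio of 2.27, leukocyte genes 1.83, enzymes 1.67, secreted proteins 1.63, steroid genes 1.39, the remaining genes 1.21 and the kallikreins 0.655. The highest ratios were those of Acta2 (4.87), Acsbg1 and Bhmt (both 3.18), Sparcl1 (2.43) and Hsd3b1 (2.40). The lowest were those of Klk1b21 (0.575), Klk1b24 (0.735), S100a4 (0.743), Prr22 (0.806) and Gstt1 (0.889). More than 2-fold higher in replicate 2 were 12 genes, and none in replicate 1. The 13 elongating spermatid genes with both values at 20 FPKM or more had a median log2 ratio of -1.07, the 9 pachytene and diplotene genes -1.11, the 12 round spermatid genes -0.99 and the 7 leptotene and zygotene genes -0.69. The 4 spermatogonium genes went the other way (0.26, with 3 of 4 higher in replicate 2). So did genes on other lists at 20 FPKM or more, chosen genes among them included: carriers (7 of 9 higher in replicate 2, median log2 ratio 0.91), glutathione (8 of 9, 0.62), Leydig (5 of 6, 0.60), adhesion (3 of 4, 0.87), immediate early (3 of 3, 1.81), MHC (3 of 3, 0.94), fibroblast (2 of 3, 0.92), myoid (2 of 3, 1.78), Sertoli (2 of 2, 0.77) and lymphocyte (2 of 2, 0.55). The kallikrein list (0 of 3, -0.80), the cholesterol list (1 of 6, -0.31), the epithelium list (0 of 2, -0.57) and Aif1 of the macrophage list (-1.46) tilted to replicate 1, and the interferon (1 of 2) and further steroid enzyme (1 of 1) lists had medians near 0. The tilt to replicate 2 was therefore not particular to the 36.

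**Figure D4:**
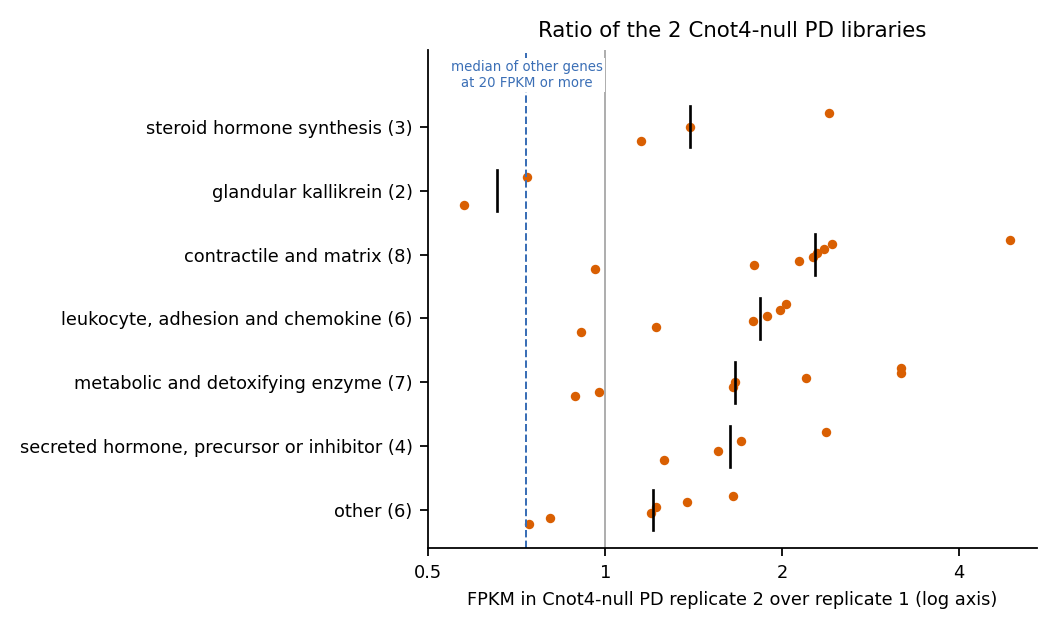
Ratio of FPKM in Cnot4-null PD replicate 2 to replicate 1 on a log axis, with a point for each of the 36 genes, grouped by role with the number of genes, and a black bar at each role's median. The dashed line is the median of 3919 other genes at 20 FPKM or more in both libraries (0.735), and the bars run from 0.655 for the kallikreins to 2.27 for the contractile and matrix genes.

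For germ cell stages the count was 0. The 7 lists of spermatogonia, LZ spermatocytes, PD spermatocytes, round spermatids, elongating spermatids, oocytes and pluripotent cells held 86 genes in the table and none of the 36. Of those 86 genes, 45 had both Cnot4-null PD values at 20 FPKM or more, and every one of the 45 had a mean of 2 or more in another group. Since the rule kept 0.904% of all symbols that passed the lower limit, a count of 0 among 45 is near that share. The count also depended on the limit. An upper limit of 5 FPKM brought in 3 round spermatid genes (Catsper4, Sun5 and Actl7a), and a 10-fold margin in place of the upper limit brought in Catsper4 and the elongating spermatid gene Odf1, while a 20-fold margin and a lower limit of 10 FPKM brought in none. Over all 28 lists, 9 of the 36 genes stood on 6 lists: 5 on 3 of the 19 cell type lists (Leydig, myoid and lymphocyte) and 4 on 3 of the 9 gene lists. The other 27 stood on none.

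Spermatid genes were high in Cnot4-null PD but present elsewhere. All 14 elongating spermatid genes were called higher than in WT PD (14 after quantile normalization, 13 after rescaling), led by Prm1, a protamine, at 7592 and 2949 FPKM (log2 difference 5.35, SE 0.96, adjusted p = 0.00388). The list summed to 19721 and 9636 FPKM in Cnot4-null PD, against 604 and 445 in WT PD, 4538 and 868 in Cnot4-null LZ and 2084 and 1827 in WT LZ. Of the 14 round spermatid genes, 10 were called higher and 2 lower (9 and 2, then 7 and 2 under the scalings), with Actl7b the most abundant at 217 and 90.2 FPKM (log2 difference 0.86, adjusted p = 0.217, and -0.57 after rescaling). This list summed to 1364 and 692 FPKM in Cnot4-null PD, against 648 and 585 in WT PD, 84.3 and 51.5 in Cnot4-null LZ and 56.7 and 141 in WT LZ. No gene of these 2 lists was at 0 in both Cnot4-null PD libraries.

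Genes of the labelled stage were present in both PD groups. The PD spermatocyte list of 12 genes summed to 6269 and 2415 FPKM in Cnot4-null PD, against 13189 and 12288 in WT PD, 318 and 149.9 in Cnot4-null LZ and 297 and 411 in WT LZ. Of its genes, 1 (Cdc25c) was called higher in Cnot4-null PD than in WT PD and 4 lower. Neither scaling kept the call of Cdc25c, with none called higher and 5 lower after quantile normalization, and none and 11 after rescaling. Ldhc, the lactate dehydrogenase of germ cells and the most abundant of the list, was at 4585 and 1474 FPKM in Cnot4-null PD (log2 difference -1.96, SE 0.74, adjusted p = 0.0568). It was called lower after rescaling (-3.40, adjusted p = 0.00474), with the replicate block (adjusted p = 0.0459), and without either Cnot4-null LZ library or Cnot4-null PD replicate 1. The LZ list of 11 genes summed to 1100 and 708 FPKM in Cnot4-null PD, against 1315 and 1367 in WT PD, 3757 and 2185 in Cnot4-null LZ and 1853 and 2142 in WT LZ, with 5 genes called higher and 4 lower (4 and 4, then 4 and 5 under the scalings). Its most abundant gene, Sycp3, of the synaptonemal complex, was at 473 and 260 FPKM (log2 difference -1.17, SE 0.40, adjusted p = 0.0409), a call lost without the filter, in the fit on the compared libraries alone, and when any of 5 libraries was left out, namely either WT LZ, either WT PD or Cnot4-null PD replicate 2 (log2 difference -0.74 without the last and -1.16 to -1.19 without the others). Meiob had no entry in the table.

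The remaining germ cell lists summed higher in LZ than in WT PD, although the oocyte list did so only with Figla. The spermatogonium list of 14 genes summed to 391 and 517 FPKM in Cnot4-null PD, against 70.5 and 84.4 in WT PD, 509 and 698 in Cnot4-null LZ and 761 and 712 in WT LZ, with 12 called higher in Cnot4-null PD than in WT PD (10 after quantile normalization, 11 and 1 lower after rescaling). Uchl1, its most abundant gene, was at 202 and 232 FPKM (log2 difference 4.55, SE 0.29, adjusted p = 0.000123). The oocyte list of 12 genes summed to 36.6 and 32.6 FPKM in Cnot4-null PD, against 23.6 and 20.2 in WT PD, 41.1 and 37.6 in Cnot4-null LZ and 37.0 and 35.8 in WT LZ, with 3 of 6 tested called higher (2 and 2 lower of 8, then 2 and 3 lower of 7 under the scalings). Figla, an oocyte factor, was at 13.7 and 16.7 FPKM, and Zp1, Zp2, Bmp15 and Zar1 were listed at 0. The pluripotent list of 9 genes summed to 78.6 and 55.6 FPKM in Cnot4-null PD, against 28.8 and 31.2 in WT PD, 110.1 and 94.6 in Cnot4-null LZ and 89.5 and 86.2 in WT LZ, with 4 of 6 tested called higher (3 and 1 lower under either scaling) and Nanog the most abundant at 19.1 and 19.5 FPKM.

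**Figure D5:**
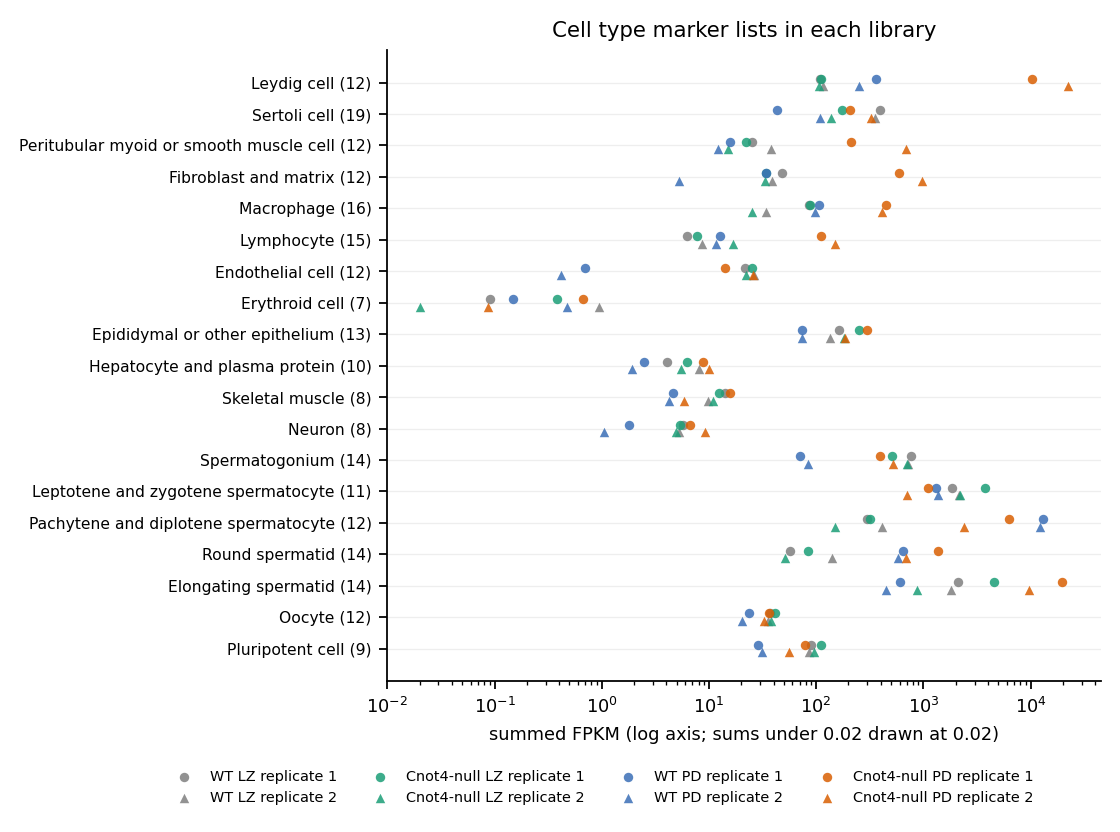
Summed FPKM of each cell type marker list in each library on a log axis, with the number of genes in the table in brackets, colours for the group and shapes for the replicate. The Leydig sums lie at 10344 and 22508 in Cnot4-null PD and between 107 and 365 in the other libraries, while the LZ spermatocyte sums are lowest in Cnot4-null PD.

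Sertoli cell genes showed another order, with no chosen gene on their list. The list of 19 genes in the table (Rhox5 had no entry) summed to 207 and 326 FPKM in Cnot4-null PD, against 43.4 and 109 in WT PD, 176 and 139 in Cnot4-null LZ and 396 and 353 in WT LZ, so the WT LZ sums were the highest. Clu, clusterin, its most abundant gene, was at 94.6 and 196 FPKM in Cnot4-null PD (log2 difference from WT PD 3.50, SE 0.42, adjusted p = 0.000733), and Fshr, the receptor for follicle-stimulating hormone, was at 0. Of 16 tested genes 8 were called higher and 1 (Dhh) lower than in WT PD, which became 2 and 1 of 15 after quantile normalization and 4 and 3 after rescaling. Over all genes tested, 41.6% were called higher, and 19.1% and 23.3% after the scalings. The median log2 difference of the 16 was 0.88, beside 0.66 over all genes, with -0.26 beside -0.12 after quantile normalization and 0.11 beside -0.30 after rescaling.

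Further somatic lists held none of the 36. The endothelial list of 12 genes summed to 14.1 and 25.7 FPKM in Cnot4-null PD, against 0.705 and 0.416 in WT PD, 25.4 and 22.1 in Cnot4-null LZ and 21.5 and 26.5 in WT LZ, with 4 of 6 tested called higher (1 of 3 and 3 of 4 under the scalings) and Egfl7 the most abundant at 8.24 and 11.4 FPKM. Without Egfl7 the sums were 5.83 and 14.3 FPKM in Cnot4-null PD, against 0.705 and 0.416 in WT PD. In LZ they were then 1.41 and 1.39 (Cnot4-null) and 1.07 and 1.22 (WT). Tested genes other than Egfl7 may therefore have passed the filter through Cnot4-null PD alone. The erythroid list, of which 7 genes were in the table (Ahsp had no entry), summed to 0.662 and 0.0870 FPKM in Cnot4-null PD, against 0.148 and 0.475 in WT PD, 0.385 and 0 in Cnot4-null LZ and 0.0899 and 0.936 in WT LZ. None of its genes was tested as deposited, Slc4a1 was the most abundant at 0.393 and 0.0870 FPKM, and the 4 globin genes were listed at 0. The list of epididymal or other epithelium, with 13 genes, summed to 295 and 187 FPKM in Cnot4-null PD, against 74.5 and 73.3 in WT PD, 253 and 183 in Cnot4-null LZ and 163 and 134 in WT LZ. Cst8, a cystatin that the testis also expresses, led it at 210 and 102 FPKM, 4 of 7 tested genes were called higher and 2 lower (2 and 2 under either scaling), and Lcn5, Lcn8, Adam7 and Gpx5, which mark epididymis, were at 0.

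Lists of liver, muscle and nerve stayed low. The hepatocyte list of 10 genes summed to 8.88 and 10.05 FPKM in Cnot4-null PD, against 2.47 and 1.90 in WT PD, 6.26 and 5.49 in Cnot4-null LZ and 4.08 and 8.14 in WT LZ. Apoh led it at 4.27 and 1.15 FPKM, Alb, Apoc3 and Ttr were at 0, and 1 gene (Apoa2) was called higher, also under either scaling. Without Apoh the hepatocyte sums were 4.62 and 8.89 FPKM in Cnot4-null PD and 0.253 and 0.232 in WT PD. In LZ they were then 5.41 and 5.49 (Cnot4-null) and 3.29 and 5.89 (WT). A value of 0 does not show absence, and the source of Agt and Bhmt was not tested. The skeletal muscle list of 8 genes summed to 15.8 and 5.88 FPKM in Cnot4-null PD, against 4.64 and 4.22 in WT PD, 12.5 and 10.8 in Cnot4-null LZ and 14.2 and 9.70 in WT LZ, with Mylpf first at 6.48 and 2.40 FPKM, Acta1, Tnnt3 and Mb at 0, and 1 of 3 (Actn3) called higher, a call lost under both scalings. The neuron list of 8 genes summed to 6.67 and 9.24 FPKM in Cnot4-null PD, against 1.80 and 1.06 in WT PD, 5.33 and 4.97 in Cnot4-null LZ and 5.70 and 5.25 in WT LZ, with Tubb3 first at 3.68 and 5.97 FPKM, Syn1 at 0, and 1 of 4 (Tubb3) called higher (1 and 1 lower of 5 after quantile normalization, 1 of 5 after rescaling).

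Gene lists without a chosen gene included the supply of cholesterol. The 15 genes of cholesterol synthesis and uptake summed to 482 and 396 FPKM in Cnot4-null PD, against 301 and 272 in WT PD, 388 and 353 in Cnot4-null LZ and 554 and 465 in WT LZ, with 10 of 14 called higher and 1 lower (7 and 1, then 7 and 5 under the scalings), Fdps first at 142 and 113 FPKM, and Hmgcs1 at 0. The cholesterol sums in LZ were near those in Cnot4-null PD, and against Cnot4-null LZ 1 of the 14 was called higher and none lower (1 and 2, then 0 and 3 under the scalings), beside 27.8% of all genes called higher, and 18.9% and 20.9% after the scalings. The 16 steroid enzymes beyond the Leydig markers summed to 86.1 and 102 FPKM in Cnot4-null PD, against 9.77 and 7.45 in WT PD, 99.7 and 89.7 in Cnot4-null LZ and 89.4 and 96.8 in WT LZ, with 8 of 12 called higher (4 and 1 lower of 10, then 6 and 1 lower of 11 under the scalings), Hsd17b10 first at 36.4 and 39.3 FPKM, and Hsd17b1, Cyp11b1 and Cyp2a4 at 0. Their sums in LZ were close to those in Cnot4-null PD, with 5 called higher and 2 lower against Cnot4-null LZ (2 and 3, then 3 and 3). The 14 carriers and lipid-binding proteins summed to 3009 and 5214 FPKM in Cnot4-null PD, against 52.8 and 20.7 in WT PD, 591 and 546 in Cnot4-null LZ and 674 and 610.2 in WT LZ, with 11 of 14 called higher (10 of 13 under either scaling) and Fabp3, a fatty acid carrier, first at 1219 and 2033 FPKM (log2 difference 7.55, SE 0.68, adjusted p = 0.000292). Of these 14, 9 reached 20 FPKM in both Cnot4-null PD libraries and all 9 had a mean of 2 or more elsewhere.

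Of the response and surface lists, the one for adhesion held a chosen gene. The 12 immediate early genes summed to 209.9 and 936 FPKM in Cnot4-null PD, against 9.22 and 5.10 in WT PD, 84.0 and 89.0 in Cnot4-null LZ and 70.4 and 59.7 in WT LZ, with 11 called higher, also under either scaling, and Fos first at 64.9 and 227 FPKM (log2 difference 6.17, SE 0.68, adjusted p = 0.000554). The 12 interferon response genes summed to 187 and 158 FPKM in Cnot4-null PD, against 11.98 and 5.46 in WT PD, 40.7 and 53.7 in Cnot4-null LZ and 36.4 and 29.7 in WT LZ, with 4 of 6 called higher (3 and 1 lower of 8, then 4 and 1 lower of 6 under the scalings) and Ifitm3 first at 150 and 106 FPKM. Without Ifitm3 the sums were 37.5 and 51.8 FPKM in Cnot4-null PD and 4.77 and 3.35 in WT PD. In LZ they were then 40.4 and 53.7 (Cnot4-null) and 36.0 and 28.7 (WT), near those in Cnot4-null PD. Against Cnot4-null LZ, 2 interferon genes were called higher and none lower (1 and 1 under either scaling). Of all genes, 27.8% were called higher in that comparison, and 18.9% and 20.9% after the scalings. The 10 MHC genes summed to 433 and 868 FPKM in Cnot4-null PD, against 95.4 and 76.9 in WT PD, 586 and 352 in Cnot4-null LZ and 412 and 353 in WT LZ, with 8 called higher and 1 lower (6 and 1, then 7 and 1) and B2m first at 257 and 529 FPKM. Against Cnot4-null LZ, 4 MHC genes were called higher and 2 lower (3 and 2, then 4 and 2). The 12 genes of cadherins, adhesion and gap junctions, which hold Vcam1, summed to 367 and 470.2 FPKM in Cnot4-null PD, against 162 and 149 in WT PD, 679 and 584 in Cnot4-null LZ and 680.4 and 454 in WT LZ, with 7 of 11 called higher and 1 lower (5 and 2, then 6 and 2) and Cd63 first at 179.9 and 158 FPKM (log2 difference 0.56, adjusted p = 0.117). The scalings called Cd63 in opposite directions, higher after quantile normalization (0.84, adjusted p = 0.036) and lower after rescaling (-0.87, adjusted p = 0.0241). Against Cnot4-null LZ, no adhesion gene outside the 36 was called higher and 2 were called lower (4 lower under either scaling), beside 18.2% of all genes called lower, and 30.8% and 33.0% after the scalings.

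Few symbol families held a chosen gene. Besides the 2 Klk1b genes, the 36 held 2 of 22 Hsd symbols, 1 of 22 Gst symbols (Gstt1) and 1 of 111 Cyp symbols (Cyp11a1). No other family counted had a chosen gene, and each had 5 genes or fewer with both Cnot4-null PD values at 20 FPKM or more, apart from Gm (67 genes) and Rik (452). At 0.904% over all symbols that passed the lower limit, the absence of the small families says little.

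In the genome (GENCODE, on the mm9 build) 35 of the 36 genes had a position, all protein coding, on 15 chromosomes, and LOC626049 had none. Chromosome 3 held 8 of them (22.9%, against 4.78% of the genes kept), among them S100a4, Ecm1 and Vcam1. Chromosome 7 held 5, the 2 kallikreins, Folr1, Sult1a1 and Sct. The median exon length was 1891 bases, against 2402 for genes with both Cnot4-null PD values at 20 FPKM or more.

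Neighbouring genes could lend reads to some of the 36. Exons of Sult1a1, Cd52 and BC028528 overlap those of Ccdc101, Aim1l and C920021L13Rik on the other strand, and those of Ctgf, Sparcl1 and Bhmt overlap Gm15270, Gm16990 and Gm15622, which were not analysed here. Ccdc101 stood at 78.5 and 55.99 FPKM in Cnot4-null PD against 6.39 and 5.98 in WT PD, while in the LZ libraries, where Sult1a1 stayed at 1.26 or lower, it was between 58.2 and 86.1. Ogn lies within Cenpp (53.1 to 119.5 FPKM in the 8 libraries) and Fgl2 within Ccdc146 (0.104 to 50.02 FPKM) with no shared exon bases. Sequence shared with other genes was most extensive for Selenbp1 (48% of its 50-base stretches, with Selenbp2) and Bhmt (45.8%, with Bhmt-ps1 and Bhmt2), and it was 16.1% for Hsd3b6 and 2.11% for Hsd3b1.

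Of the 36 genes, 27 had a RefSeq promoter, and 9, among them Cd52, Ctgf and Vcam1, had no entry. On either strand of the 250 bases before the start, CAAGGTCA (NR5A1) lay in 2 of 27 (7.41%, Bhmt and Klk1b21), against 1.51% of 27025 genes. TGACGTCA, the cyclic AMP response element, which reads the same on both strands, lay in none of the 27 and in 1.77% of all genes. TATAAA, the TATA box, lay in 9 (33.3%, against 14.3%) and GGGCGG, the GC box, in 6 (22.2%, against 35.4%). None of these motifs contains another. These matches describe letters, not sites in use.

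Several genes sat at the edge of the rule. Just inside the lower limit were Ecm1 (lower Cnot4-null PD value 20.2 FPKM), Htra3 (20.6), Sult1a1 (21.0), Cxcl1 (21.1) and Rnase4 (21.2), and just outside it Ly6a (19.99), Sult1e1 (19.98), Efemp1 (19.6), Serpina3g (18.9) and Cald1 (18.5). Just inside the upper limit were Prr22 (highest other mean 1.97 FPKM), Ly6e (1.91) and LOC626049 (1.76), and just outside it Cyp26b1 (2.02), Igfbp6 (2.11) and Ccin (2.19). Of the genes outside, Sult1e1 inactivates estrogen, Efemp1 and Cald1 are matrix and smooth muscle genes, and Igfbp6 is a secreted binding protein, whereas Ccin is a spermatid gene. Near the limits the membership of the set rests on small differences: leaving out Cnot4-null PD replicate 1 gave 86 genes and leaving out replicate 2 gave 96, each with all of the 36, and rescaling gave 19.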

How the data were processed

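The authors deposited FPKM per gene symbol for 8 RNA-seq libraries of sorted mouse spermatocytes. They trimmed reads to 50 bases, mapped them to mm9 with TopHat2 (2.1.1) and computed FPKM on UCSC gene models with Cufflinks (2.2.1), each library on its own and with no scaling between libraries stated. Groups and replicates were taken from the labels.

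The 36 genes follow a rule on these values. The genes and the lists were chosen with earlier results of these data known. The roles were assigned after the values were seen, as were the choice of the rule turned to other groups and a limit of 20-fold or 10-fold in place of the upper limit. Each value was used as deposited. Genes above 1 FPKM in at least 1 library were fitted with limma (3.58.1, R 4.3.3) on log2(FPKM + 1) with 4 group means and a variance trend, two-sided, with Benjamini-Hochberg adjustment over all genes tested and calls at adjusted p under 0.05. The fit was tested on simulated data. It served for the background and for listed genes outside the 36. Tables were made with pandas (2.3.3) and numpy (2.4.6) in Python (3.11.15), and figures with matplotlib (3.10.9).

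Genes were named by rule: those of the 36 on a list, the 15 with the highest mean in Cnot4-null PD, those nearest the limits, the 5 highest and 5 lowest ratios between the Cnot4-null PD libraries, the most abundant gene of each list and its markers at 0, and Cnot4. Other genes, among them Cyp17a1, Star, Hsd17b3, Lhcgr, Fdx1, Klk1b27, overlapping genes such as Ang, the only gene of a list called in one direction, and the rest of the 36, were named after their values were seen. A gene of the 36, which stays in all counts, and a listed marker are not reported here by name.

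The lists of cell type markers were Leydig, Sertoli, peritubular myoid or smooth muscle, fibroblast and matrix, macrophage, lymphocyte, endothelial, erythroid, epididymal or other epithelium, hepatocyte, skeletal muscle, neuron, spermatogonium, LZ spermatocyte, PD spermatocyte, round spermatid, elongating spermatid, oocyte and pluripotent cell. The gene lists were cholesterol, steroid enzymes beyond the Leydig markers, glandular kallikrein, interferon response, immediate early, MHC, adhesion, glutathione and carriers.

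Positions came from GENCODE, and promoters from RefSeq, where a motif was searched in every start of a gene. Shared sequence was the share of 50-base stretches of a gene's transcripts found in transcripts of another gene. Alternatives were other limits, pseudocounts and filters, quantile normalization, rescaling to the same median, the replicate block and each library left out.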

Additional observations from a re-analysis of the deposited data

How the results depend on the processing

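The number of genes found by the rule followed its limits. It was 134 with a lower limit of 10 FPKM (all 36 among them), 9 with 50, 23 with an upper limit of 1 and 126 with 5 (all 36). Quantile normalization left 20 and rescaling 19, all of them among the 36. Leaving out each library in turn gave 35 to 96, with 86 without Cnot4-null PD replicate 1 and 96 without replicate 2. Margins in place of the upper limit, chosen after the values were seen, gave 74 at 10-fold (all 36) and 47 at 20-fold (30 of the 36).

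Calls in both directions between Cnot4-null PD and WT PD numbered 8449. They fell to 5219 with a mean of at least 5 FPKM, where fewer genes were tested, and ranged from 4073 to 9932 with a library left out (4369 without WT PD replicate 1, 4073 without replicate 2). Against Cnot4-null LZ, 7316 calls became 3955 with the fit on the compared libraries alone, and 4651 to 8238 with a library left out. With the replicate block the calls were 8298, 7128 and, for WT PD against WT LZ, 9085. A library left alone in its group is assumed to vary like the other groups. The median log2 ratio of the 2 Cnot4-null PD libraries over the 36 genes moved from 0.73 to 1.23 after quantile normalization. The causes were not tested.

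Among 33 named genes, 461 of 491 alternatives kept the direction and the side of the threshold. The log2 difference could not move where only the filter, the replicate block or libraries outside the comparison changed. In those alternatives only the adjusted p could move. Signs turned for Apoh (-1.15 after quantile normalization, -0.78 after rescaling, -0.44 without Cnot4-null PD replicate 1 to 0.84 without replicate 2), Mylpf (-0.50 and -0.095 after the 2 scalings), Actl7b (-0.57) and Cd63 (-0.87, called lower, but called higher after quantile normalization) after rescaling, and Fdx1 (0.093) after quantile normalization. Of 420 recounts of list calls, 357 stayed within 1.5 times.

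With 2 libraries a group, no counts and deposited values that lack a common scaling, levels under 1 FPKM rest on few reads, and a value of 0 does not show absence.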
